A study of Mus musculus with 8 samples.

Results

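Ms4a and Tmem176 genes encode small membrane proteins that cross the membrane 4 times, and 8 of them were followed here in mouse bone marrow-derived macrophages: Ms4a4a, Ms4a4c, Ms4a6b, Ms4a6c, Ms4a6d, Ms4a7, Tmem176a and Tmem176b. They were taken by gene name from a count table of 54532 genes, and all 8 were among the 12234 genes with enough reads to be tested. The genes were chosen by family name, but with their levels and fold changes in the same 4 groups already known. Their levels, fold changes and adjusted p-values are therefore a description, and no count of them is independent support for a pattern.

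MS4A proteins sit in the plasma membrane and endosomes, where several of them associate with other receptors and tune their signalling. The family is best known from Ms4a1, which encodes the B cell antigen CD20, and Ms4a2, which encodes the beta chain of the high-affinity IgE receptor, but several members belong to macrophages. MS4A4A is known to associate with the beta-glucan receptor dectin-1, and the MS4A locus in humans is linked to the level of soluble TREM2. TMEM176A and TMEM176B are related cation channels of intracellular membranes. TMEM176B is known to restrain the NLRP3 inflammasome, and both have been linked to antigen presentation on MHC class II.

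Cells were grown from mouse bone marrow, and the labels give no strain, age or sex and no genetic change. Control cells were left without either agent. LPS cells were given 100 ng/ml lipopolysaccharide, a component of the bacterial cell wall, for 4 h, and IL-4 cells received 20 ng/ml interleukin 4, the cytokine of type 2 immunity, for 24 h. In the last group, named IL-4 then LPS, cells had 24 h of 20 ng/ml IL-4, a wash, and 4 h of 100 ng/ml LPS. Each group held 2 libraries, numbered 1 and 3, of 7924932 to 9431852 reads each. The labels do not say whether a number stands for an animal or a culture, so the p-values measure the spread between these libraries.

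Before the results, 1 property of the libraries matters. All 4 libraries numbered 1 held 2936 to 4465 reads of Xist and none of the 4 Y-linked genes Ddx3y, Eif2s3y, Kdm5d and Uty. All 4 libraries numbered 3 held no read of Xist and 1246 to 1546 reads of those Y-linked genes. The replicate number therefore went with the sex of the cells, so numbers 1 and 3 did not come from the same animal. Whether a number stands for 1 animal or several is not given. Libraries with the same number also deviated together across genes. Values are given below without and, where it changes a call, with the replicate number as a term of the model. Level here means CPM, read counts scaled to a common library total, and a gene passed the test, or was called, where edgeR's quasi-likelihood test gave an adjusted p below 0.05.

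The macrophage label was borne out by all 10 macrophage markers examined, which summed to 18896 to 25857 CPM in control and 13146 to 18183 CPM in IL-4 libraries. After LPS they summed to 21614 to 24238 CPM without and 13697 to 19115 CPM with earlier IL-4. B cell markers, which include Ms4a1, summed to 0 to 1.26 CPM over all libraries, with Cd79a at 0. Mast cell and basophil markers summed to 12.4 to 18.2 CPM in control, 55.6 to 94.9 in LPS, 5.89 to 9.09 in IL-4 and 69.2 to 108 in IL-4 then LPS libraries, while Fcer1a, Mcpt8 and Ms4a2 were at 0 in every group. In bulk RNA, fewer cells of a type and less RNA per cell cannot be told apart.

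The Ms4a members lie in 1 gene cluster and the Tmem176 members form a head-to-head pair (mm10). On chromosome 19, Ms4a7 spans 11321039 to 11336146 on the minus strand. It is followed by Ms4a4a (11375523 to 11392790, plus), Ms4a4c (11404770 to 11427246, plus) and Ms4a6c (11469366 to 11482192, plus). Ms4a6b (11516512 to 11531256, plus) and Ms4a6d (11586604 to 11604849, minus) close the run. These 6 genes cover 283.8 kb, in which 8 of the 19 Ms4a genes of the table lie. On chromosome 6, Tmem176b (48833818 to 48841496, minus) and Tmem176a (48840919 to 48847071, plus) start inside each other. They overlap by 578 bases on opposite strands, of which 81 are exonic in both. All 8 positions are the same in GENCODE M21.

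The sequence before the start of a gene was taken from RefSeq (GRCm38.p6), 250 bases per start, and 7 of the 8 members had an entry, with 11 windows in all. Ms4a6b and Ms4a6c are shown because their windows are near copies while their levels, given further on, differed. Exonic bases were left out, which leaves 144 bases for Ms4a6b (chr19:11518309-11518452, plus) and 248 for Ms4a6c (chr19:11469118-11469365, plus). The RefSeq start used for Ms4a6b lies inside the gene span given above, which begins at 11516512. The 106 bases left out of its window are exon of Ms4a6b itself. Its stretch therefore does not precede the start of the counted gene. Capitals mark the longest identical run of the stretches left, of 24 bases. The first of the bases left out of Ms4a6b are identical to the printed end of Ms4a6c. The full windows therefore share a longer run.
Ms4a6b: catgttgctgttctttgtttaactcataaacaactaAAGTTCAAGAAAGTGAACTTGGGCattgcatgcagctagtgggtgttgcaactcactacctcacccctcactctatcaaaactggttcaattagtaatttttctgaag
Ms4a6c: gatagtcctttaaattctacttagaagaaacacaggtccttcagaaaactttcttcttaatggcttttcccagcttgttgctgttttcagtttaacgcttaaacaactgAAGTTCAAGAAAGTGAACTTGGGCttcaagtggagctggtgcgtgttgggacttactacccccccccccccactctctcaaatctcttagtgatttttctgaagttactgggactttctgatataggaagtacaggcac
In the best local alignment of these stretches, 116 of 134 bases (86.6%) were identical. Among the other 27 pairs of the 8 Ms4a upstream stretches compared, the longest identical run had 6 to 20 bases. The run of 20 bases belonged to Ms4a4b and Ms4a4c, which were also near copies, with 113 of 126 aligned bases identical (89.7%). The Ms4a4c window (chr19:11407411-11407660, plus) also lies inside its gene span, which begins at 11404770.

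Ms4a4a and Ms4a7 are shown because their first windows held the only matches there to any of 6 short motifs searched on both strands: ISRE (GAAANNGAAA), STAT6 (TTCNNNNGAA), GAS (TTCNNNGAA), PU.1 (GAGGAAGT), kB (GGGANTTTCC) and AP-1 (TGANTCA). The capitals in Ms4a4a (chr19:11375238-11375487, plus) mark the kB letters, and those in Ms4a7 (chr19:11336147-11336396, minus) the STAT6 letters. Both sequences run 5′ to 3′ on the strand of the gene.
Ms4a4a: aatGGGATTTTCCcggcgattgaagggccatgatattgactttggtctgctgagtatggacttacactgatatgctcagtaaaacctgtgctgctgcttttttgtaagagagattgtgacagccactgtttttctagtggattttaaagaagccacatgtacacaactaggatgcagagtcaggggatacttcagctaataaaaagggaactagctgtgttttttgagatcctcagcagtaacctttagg
Ms4a7: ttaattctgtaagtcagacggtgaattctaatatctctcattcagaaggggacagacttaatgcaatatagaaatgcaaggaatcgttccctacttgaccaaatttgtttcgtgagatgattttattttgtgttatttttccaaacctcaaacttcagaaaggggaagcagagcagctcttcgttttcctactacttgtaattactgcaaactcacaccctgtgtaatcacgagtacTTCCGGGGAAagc
A second Ms4a7 window, which lies inside the gene span, held 1 AP-1 match, and no window of a member held the ISRE letters. Of all 32851 windows of the same length, 0.36% held the kB letters, 5.85% STAT6, 6.75% AP-1, 7.02% GAS, 2.98% ISRE and 2.44% PU.1. A match describes the letters of the window and nothing about binding. The Tmem176 windows lie almost wholly in exons of the pair and are not printed.

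The members fell into different patterns over the 4 groups. Ms4a4a, Ms4a4c, Ms4a6c and Ms4a6d rose 3.29-fold to 68.7-fold with LPS, with or without IL-4 before it. Tmem176b was 2.86-fold to 3.81-fold lower on average in the IL-4 groups than in their partner groups. That difference did not pass in edgeR without the replicate term, and passed with it, with DESeq2 and without the low-count filter. Ms4a6b rose with LPS and was lower with IL-4, which passed in the same settings as for Tmem176b among others. Ms4a7 and Tmem176a did not pass in edgeR over all 8 libraries without the replicate term in any of the 4 group comparisons, though other settings called some of these changes; Tmem176a was lowest against its partner group in IL-4 then LPS against LPS (-1.61 ± 0.38). With the scaling used here the mean difference had 1 sign for all 8 members in 3 of the 4 group comparisons, and for 7 in the last; with library size alone this did not hold for LPS.

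**Figure D1:**
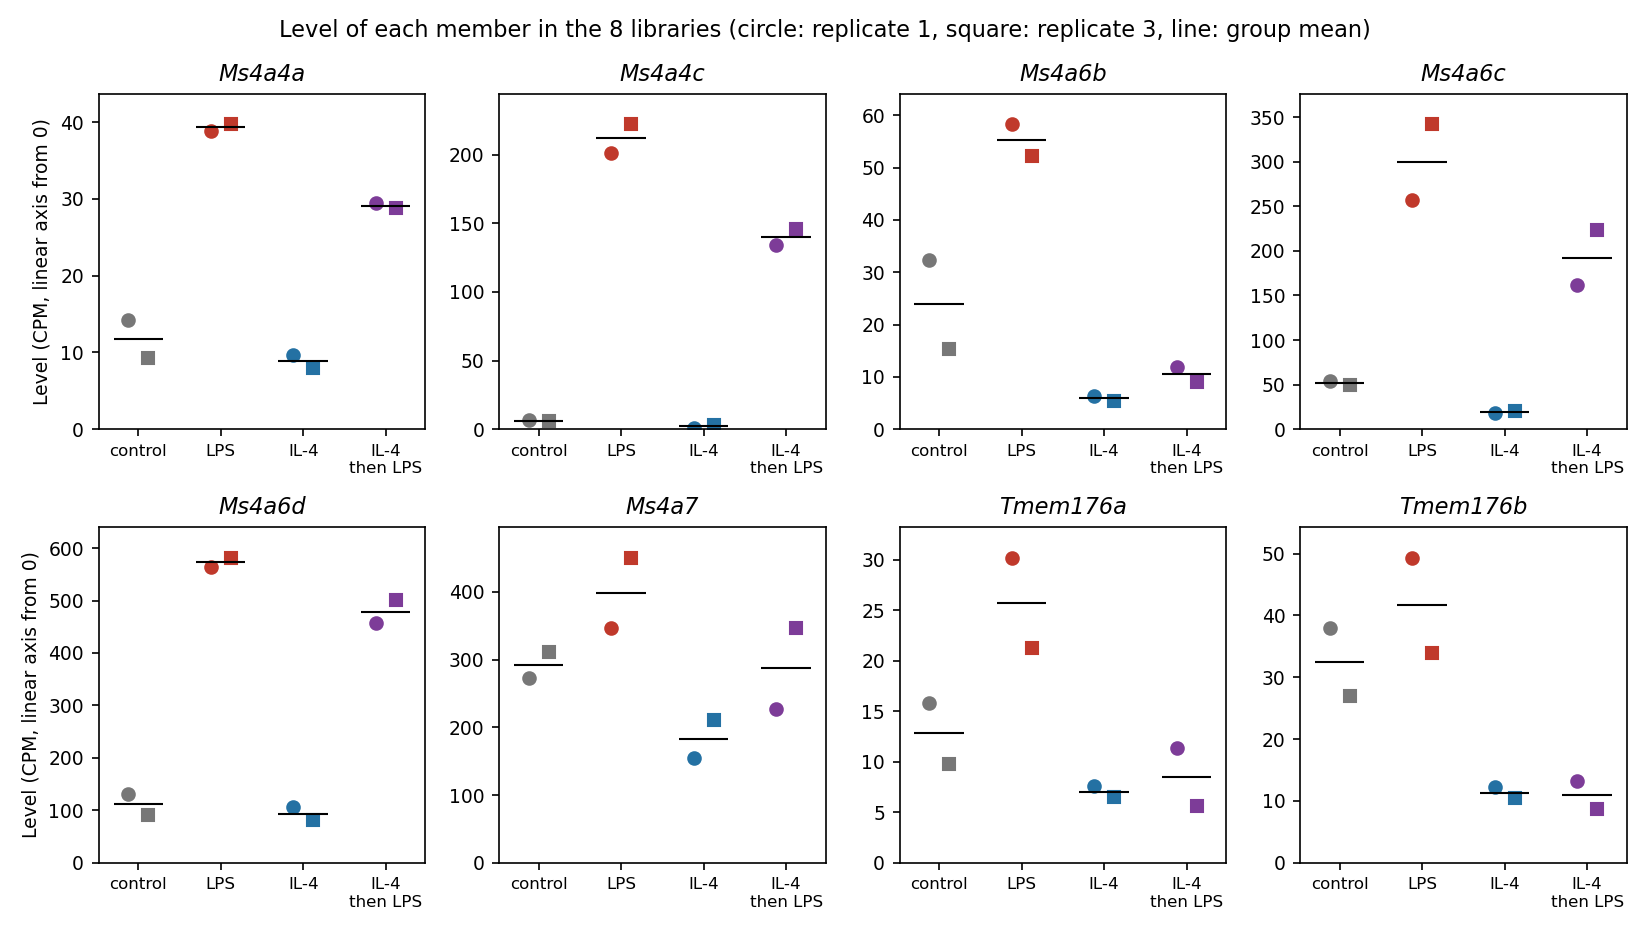
Level of each of the 8 genes in the 8 libraries, in CPM on a linear axis from 0. Circles are replicate 1, squares replicate 3 and lines group means (n = 2). Ms4a4a, Ms4a4c, Ms4a6c and Ms4a6d were high in both LPS groups, and Ms4a6b was highest in the LPS libraries (58.3 and 52.2 CPM).

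How cells without IL-4 responded to LPS was asked first, by comparing LPS with control libraries. Of the 8 members 5 rose, none fell, and 3 did not pass the test, against 21.8% of all tested genes called higher and 18.6% called lower. The rule for the genes used these values, so nothing is read from the count. Their median log2 fold change was 1.47, against -0.01 over all tested genes. The levels of 7 members did not overlap between the groups, all of them higher with LPS, as for 35.9% of tested genes. With the replicate number in the model all 8 members rose, against 28.2% of tested genes. The scaling matters here: with library size alone the median of all genes shifted by -0.602 (log2), and Ms4a7 (-0.16) and Tmem176b (-0.24) changed sign, while the other 6 members stayed positive.

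Ms4a4c, from a branch of the family that is expanded in mice, had the largest LPS response of the 8. Its level was 6.57 and 5.73 CPM in the control libraries and 201 and 222 CPM in the LPS libraries. The groups were far apart, with 76 and 58 reads against 1440 and 1610. It rose by 5.10 ± 0.42 (log2, SE, n = 2 a group), a 34.3-fold change (edgeR adjusted p = 6.76e-05). Ms4a4c shares 7.73% of its 50-base stretches with Ms4a4b, a gene with few reads here.

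Ms4a6d, which was the most abundant of the 8 per length after LPS, had 132 and 90.6 CPM in control and 564 and 582 CPM in LPS libraries. The LPS libraries lay close together and both control libraries far below them. The rise was 2.37 ± 0.22 (log2), or 5.16-fold (edgeR adjusted p = 0.000111).

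Ms4a6c gave 54.1 and 49.4 CPM in control and 257 and 342 CPM in LPS libraries. Its rise was 2.53 ± 0.21 (log2), or 5.78-fold (edgeR adjusted p = 7.70e-05). Part of the Ms4a6c signal is uncertain, because BE692007, a non-coding transcript on the opposite strand, overlaps 1088 of its exonic bases and shares 49.6% of its 50-base stretches. The strand setting of the counting is not given, so reads of these genes could not be told apart. BE692007 held 6.3% to 17.2% as many reads as Ms4a6c over the 8 libraries, with 8.90 and 6.22 CPM in control and 43.5 and 45.7 CPM in LPS libraries.

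Ms4a4a, the partner of dectin-1, gave 14.2 and 9.29 CPM in control against 38.9 and 39.7 CPM in LPS libraries. Both LPS values were above both control values. It rose by 1.74 ± 0.22 (log2), or 3.34-fold (edgeR adjusted p = 0.000564).

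Ms4a6b, a gene also known from T cells, had control levels of 32.4 and 15.3 CPM and LPS levels of 58.3 and 52.2 CPM. The control libraries differed more from each other than the LPS libraries did. Its rise of 1.21 ± 0.32 (log2), or 2.31-fold, passed the test (edgeR adjusted p = 0.0196). That call was lost without control replicate 3 (0.73, adjusted p = 0.0544), without LPS replicate 1 (1.12, 0.07) and without LPS replicate 3 (1.28, 0.0521), as well as with library size alone (0.59) and with upper-quartile scaling (0.94). Within each number the LPS library was 1.80-fold (replicate 1) and 3.41-fold (replicate 3) higher.

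The remaining 3 members did not pass without the replicate number in the model and passed with it. Ms4a7, a marker of tissue macrophages, had 273 and 312 CPM in control and 347 and 451 CPM in LPS libraries. Its fold change was 0.45 ± 0.25 (log2, edgeR adjusted p = 0.186), or 0.43 ± 0.12 with the replicate term (adjusted p = 0.0113). Tmem176a had 15.8 and 9.78 CPM in control and 30.2 and 21.3 CPM in LPS libraries, a change of 1.0 ± 0.36 (adjusted p = 0.0594, or 0.00213 with the replicate term). Tmem176a was also called by DESeq2 (adjusted p = 0.0369), without the filter on low counts (0.00165), and without IL-4 then LPS replicate 1 (0.0344) or replicate 3 (0.0342). Tmem176b had 37.9 and 27.0 CPM against 49.4 and 33.9 CPM, which overlap, with a change of 0.36 ± 0.27 (adjusted p = 0.322, or 0.0473 with the replicate term).

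These 3 genes differed between the replicate numbers in a constant direction. Ms4a7 was higher in replicate 3 in 4 of 4 groups. Tmem176a, Tmem176b and Ms4a6b were higher in replicate 1 in 4 of 4 groups. Because the number goes with the sex of the cells, a sex difference and any other difference between the replicate cultures cannot be told apart.

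Dendritic cell markers also moved with LPS, from 1.38 to 1.58 CPM summed in control to 7.18 to 12.4 CPM in LPS libraries. Of the 7 markers 3 were tested and 2 rose, against 21.8% of all tested genes called higher. The mast cell sum moved mostly through Hdc, which rose by 7.61 ± 0.64 (log2, edgeR adjusted p = 7.35e-05). Their part in the members' changes was not tested.

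**Figure D2:**
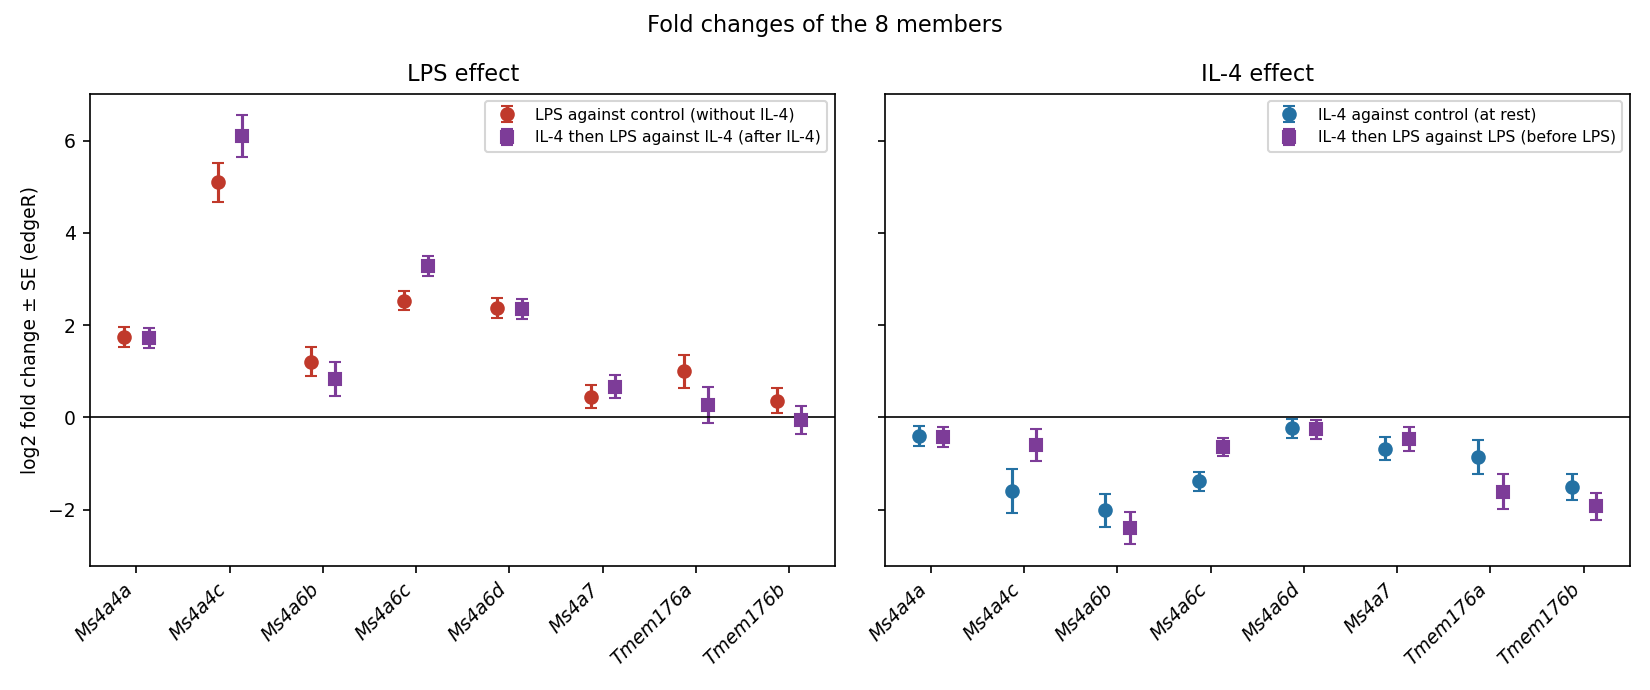
Log2 fold changes of the 8 genes with their SE (edgeR, n = 2 libraries a group), for LPS at the left and IL-4 at the right. The LPS changes run from -0.06 to 6.10 and the IL-4 changes from -2.40 to -0.24, all below 0.

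What IL-4 alone changed was asked by IL-4 against control. All 8 members had lower mean levels after IL-4, but none passed the test, against 0.0572% of tested genes called higher and 0.00817% called lower. Of the members, 5 had an unadjusted p under 0.05 (edgeR), as had 892 of all 12234 tested genes. DESeq2 called 4 members lower (0.368% of tested genes). With the replicate term edgeR also called 4 lower, against 0.858% of tested genes. The median log2 fold change was -1.13 for the members and 0 for all tested genes. The levels of 6 members did not overlap between the groups, all lower with IL-4, as for 19.2% of tested genes; Ms4a4a and Ms4a6d overlapped.

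Ms4a6b fell furthest with the replicate term. Its level was 6.42 and 5.34 CPM in the IL-4 libraries, below both control libraries (32.4 and 15.3 CPM). The change was -2.02 ± 0.35 (log2, edgeR adjusted p = 0.162), or -1.98 ± 0.24 with the replicate term (adjusted p = 0.00446), a 3.94-fold lower level. Without control replicate 3 the change was -2.49 and passed the test alone (adjusted p = 0.0478).

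Tmem176b, the inhibitor of the NLRP3 inflammasome, had 12.3 and 10.4 CPM after IL-4 and 37.9 and 27.0 CPM in control. Both IL-4 libraries held less than both control libraries. Its change was -1.51 ± 0.28 (log2, edgeR adjusted p = 0.183), and with the replicate term it fell by 1.5 ± 0.14 (adjusted p = 0.0018), or 2.83-fold. Tmem176a moved the same way, from 15.8 and 9.78 CPM to 7.58 and 6.52 CPM. Its change of -0.86 ± 0.37 passed neither without (adjusted p = 0.685) nor with the replicate term (0.0874).

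Ms4a6c had 18.4 and 21 CPM after IL-4, and both libraries were below those of control (54.1 and 49.4 CPM). Its change was -1.39 ± 0.21 (log2, edgeR adjusted p = 0.109), and with the replicate term it fell by 1.41 ± 0.16 (adjusted p = 0.00369). Ms4a7 had 154 and 210 CPM after IL-4, a change of -0.68 ± 0.25 (adjusted p = 0.586). With the replicate term Ms4a7 fell by 0.70 ± 0.12 (adjusted p = 0.0191), or 1.62-fold.

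Ms4a4c gave 0.713 and 3.35 CPM after IL-4, from 8 and 37 reads, against 6.57 and 5.73 CPM in control. Both were below both control libraries but far from each other, and the change of -1.60 ± 0.47 did not pass in edgeR without (adjusted p = 0.467) or with the replicate term (0.0823), but did with DESeq2 (0.0164) and without the low-count filter (4.00e-07). Without IL-4 replicate 3 it was -3.13 (adjusted p = 0.036), and without IL-4 replicate 1 it was -0.90, so single libraries set its size. Ms4a4a (9.72 and 7.97 CPM; -0.41 ± 0.22) and Ms4a6d (106 and 82.1 CPM; -0.24 ± 0.21) lay within the range of control or close to it.

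The macrophage markers were lower in sum with IL-4, as given above. Most of that sum was Lyz2, with a mean of 16486 CPM in control and 10721 CPM in IL-4 libraries. Itgam (0.22 ± 0.17, log2), Spi1 (0.20 ± 0.26) and Tyrobp (0.08 ± 0.17) had positive changes, and the other markers negative ones. With the replicate term 2 of the 10 fell, Cd14 and Fcgr1, against 0.858% of tested genes called lower. Cd14, the LPS co-receptor, changed by -1.35 ± 0.18 (log2, edgeR adjusted p = 0.0843, or 0.00326 with the replicate term). Dendritic cell markers summed to 1.27 to 2.05 CPM in IL-4 libraries, close to control. The part of these levels in the members' changes was not tested.

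The comparison IL-4 then LPS against LPS asked whether earlier IL-4 left other levels after LPS. The labels name a wash only for the IL-4 then LPS group. These groups may therefore also differ by the wash, which cannot be told apart from earlier IL-4 here. All 8 members were again lower on average with IL-4 and none passed the test, against 0.049% of tested genes called higher and 0.0163% called lower. Of the members 4 had an unadjusted p under 0.05 (edgeR), as had 1040 of all 12234 tested genes. DESeq2 called 3 members lower (0.474% of tested genes), and the replicate term gave 3 lower, against 1.22% of tested genes. The median was -0.62 for the members and -0.03 for all tested genes. In 7 members, all but Ms4a7, the levels did not overlap and were lower with IL-4, as for 19.8% of tested genes.

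The 3 genes called with the replicate term were Ms4a6b, Tmem176b and Tmem176a. Ms4a6b had 11.9 and 9.07 CPM in IL-4 then LPS and 58.3 and 52.2 CPM in LPS libraries. The change was -2.40 ± 0.35 (log2, edgeR adjusted p = 0.102), and with the replicate term it fell by 2.41 ± 0.23 (adjusted p = 0.0020), or 5.32-fold. Both values after IL-4 then LPS were also below both control values (32.4 and 15.3 CPM).

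Tmem176b had 13.3 and 8.68 CPM in IL-4 then LPS against 49.4 and 33.9 CPM in LPS libraries. The change was -1.93 ± 0.29 (edgeR adjusted p = 0.112, or 0.000704 with the replicate term), a 3.80-fold lower level with that term. Tmem176a had 11.4 and 5.57 CPM against 30.2 and 21.3 CPM, a change of -1.61 ± 0.38 (adjusted p = 0.279, or 0.00752 with the replicate term). Within the replicate numbers Tmem176b was 3.72-fold and 3.91-fold lower, and Tmem176a 2.66-fold and 3.81-fold lower.

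The log2 changes of the other 5 members ran from -0.64 to -0.26. Ms4a6c had 162 and 223 CPM in IL-4 then LPS libraries (-0.64 ± 0.20, edgeR adjusted p = 0.431, or 0.0568 with the replicate term). Ms4a4c had 134 and 146 CPM (-0.60 ± 0.34), Ms4a4a 29.4 and 28.8 CPM (-0.43 ± 0.21) and Ms4a6d 457 and 501 CPM (-0.26 ± 0.21). Ms4a7 had 228 and 347 CPM, which overlap the LPS libraries (-0.47 ± 0.25). None of these 5 passed with or without the replicate term.

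The IL-4 effects at rest and after LPS come from separate libraries, although both comparisons pair the same 2 replicate numbers. The effect after LPS may also hold the wash. Across the 8 genes they correlated with Pearson's r = 0.69, against 0.42 across all 12234 tested genes; genes are not independent replicates. Ms4a6b and Tmem176b held the lowest values in both, apart from Ms4a4c at rest.

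**Figure D3:**
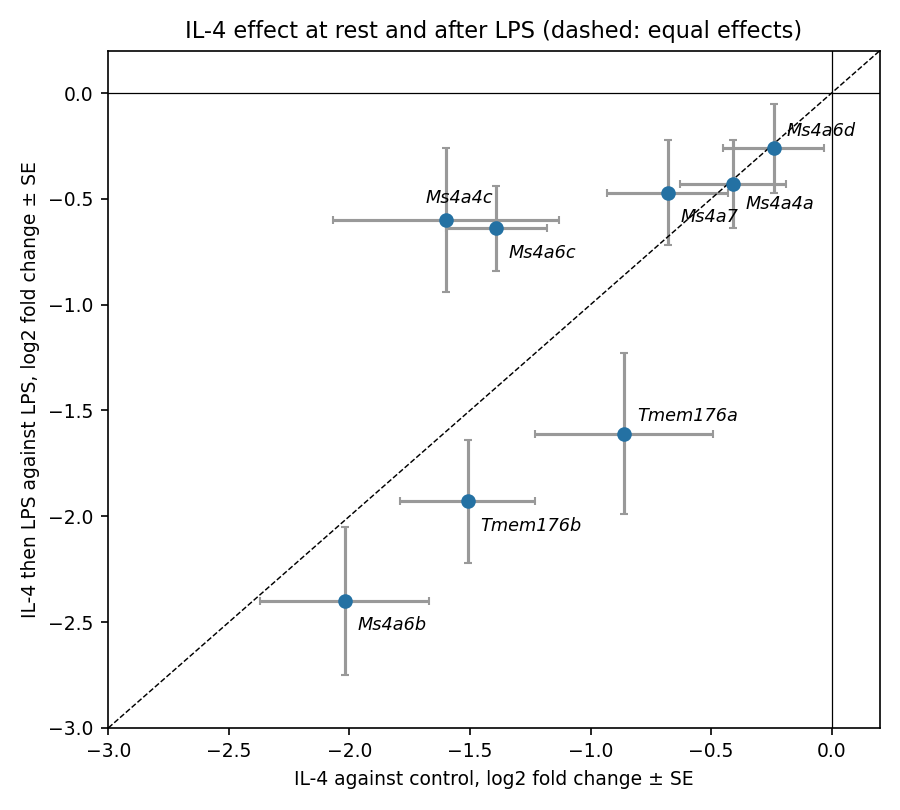
IL-4 effect at rest (IL-4 against control, horizontal) and after LPS (IL-4 then LPS against LPS, vertical) for each gene, as log2 fold changes with their SE. All 8 points lie below 0 on both axes, Ms4a6b lowest (-2.02 and -2.40), and Ms4a4c and Ms4a6c lie furthest above the dashed line of equal effects.

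How cells that had met IL-4 responded to LPS was asked by setting IL-4 then LPS libraries against IL-4 libraries. By the labels these groups may also differ by the wash and the 4 h after it, which cannot be told apart from LPS here. Of the 8 members 4 rose, none fell and 4 did not pass, against 20.7% of tested genes called higher and 18.6% called lower. With the replicate term 6 rose, against 26% of tested genes called higher. The median was 1.27 for the members and -0.04 for all tested genes, and 6 members did not overlap between the groups, all higher, as for 34.8% of tested genes. With library size alone the median of all genes shifted by -0.52 (log2) and Tmem176a changed sign (-0.26), while the other members kept theirs.

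Ms4a4c rose from 0.713 and 3.35 CPM to 134 and 146 CPM, by 6.10 ± 0.46 (log2, edgeR adjusted p = 4.92e-05). With only 45 reads in the IL-4 group, the size of this rise depends on the library, from 5.38 to 7.61 when each library was left out in turn. Ms4a6c rose by 3.29 ± 0.22 (9.78-fold, adjusted p = 3.32e-05), Ms4a6d by 2.35 ± 0.22 (5.10-fold, adjusted p = 0.000123) and Ms4a4a by 1.72 ± 0.22 (3.29-fold, adjusted p = 0.000702). In each of these 4 genes both LPS libraries were above both IL-4 libraries.

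Ms4a6b (0.83 ± 0.36, edgeR adjusted p = 0.108) and Ms4a7 (0.66 ± 0.25, adjusted p = 0.0715) did not pass, but did with the replicate term (0.0266 and 0.00148). Without it, Ms4a6b also passed when control replicate 1 (edgeR adjusted p = 0.0208) or 3 (0.0207) was left out, and without the low-count filter (0.0102). Ms4a7 also passed without IL-4 then LPS replicate 1 (0.0328), with DESeq2 (0.0384) and without the filter (0.00899). The Tmem176 pair passed neither way. Tmem176a had 7.58 and 6.52 CPM after IL-4 and 11.4 and 5.57 CPM after IL-4 then LPS, and its change was 0.26 ± 0.39. Tmem176b had 12.3 and 10.4 CPM and then 13.3 and 8.68 CPM, a change of -0.06 ± 0.30. In both genes the 2 groups overlapped.

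The difference of the LPS responses, with against without earlier IL-4, was tested directly. It too may hold the wash and the 4 h after it. No member and no other gene passed (edgeR, 0% of tested genes), although 1 member, Ms4a6c, and 322 of all tested genes had an unadjusted p under 0.05. With the replicate term 1 gene of all was called (0.00817%), not a member. Ms4a6c had the larger response after IL-4 by 0.76 ± 0.29 (log2; adjusted p = 1.0), and Ms4a4c by 1.0 ± 0.58. Without IL-4 replicate 1 the Ms4a4c value was 0.33 and without IL-4 replicate 3 it was 2.56. The differences were -0.75 ± 0.53 for Tmem176a, -0.41 ± 0.40 for Tmem176b and -0.37 ± 0.49 for Ms4a6b. Those of Ms4a4a, Ms4a6d and Ms4a7 lay between -0.02 and 0.21, below their SE. So the members whose LPS response passed in one arm only were not shown to respond differently in the other.

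Per length, the order of the members changed with LPS. Levels per length are CPM per kilobase of the gene length in the deposited table. In control cells Ms4a7 (65.7 ± 6.2, mean ± SD, n = 2) and Ms4a6d (64.0 ± 16.7) led and did not differ beyond their spread. Ms4a6c (25.2 ± 1.63) came next. Ms4a4a (14 ± 4.14) and Tmem176b (13.7 ± 3.27) overlapped, as did Ms4a6b (5.32 ± 2.70), Ms4a4c (3.51 ± 0.339) and Tmem176a (3.36 ± 1.12).

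After LPS the order was Ms4a6d (330 ± 7.18), Ms4a6c (146 ± 29.5), Ms4a4c (121 ± 8.41) and Ms4a7 (89.6 ± 16.5). Of these neighbours Ms4a6c and Ms4a4c overlapped within 1 SD, so Ms4a4c moved from the lowest level group to beside Ms4a6c. Ms4a4a (47.0 ± 0.738), Tmem176b (17.6 ± 4.6), Ms4a6b (12.3 ± 0.969) and Tmem176a (6.75 ± 1.66) followed. After IL-4 alone Ms4a6d (54.1 ± 9.55) and Ms4a7 (40.9 ± 8.87) led, and Ms4a6b (1.31 ± 0.17) and Ms4a4c (1.16 ± 1.07) were lowest. After IL-4 then LPS the first places were those of LPS alone, with Ms4a6d at 276 ± 18.1, Ms4a6c at 93.9 ± 21.2 and Ms4a4c at 80.0 ± 4.64.

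**Figure D4:**
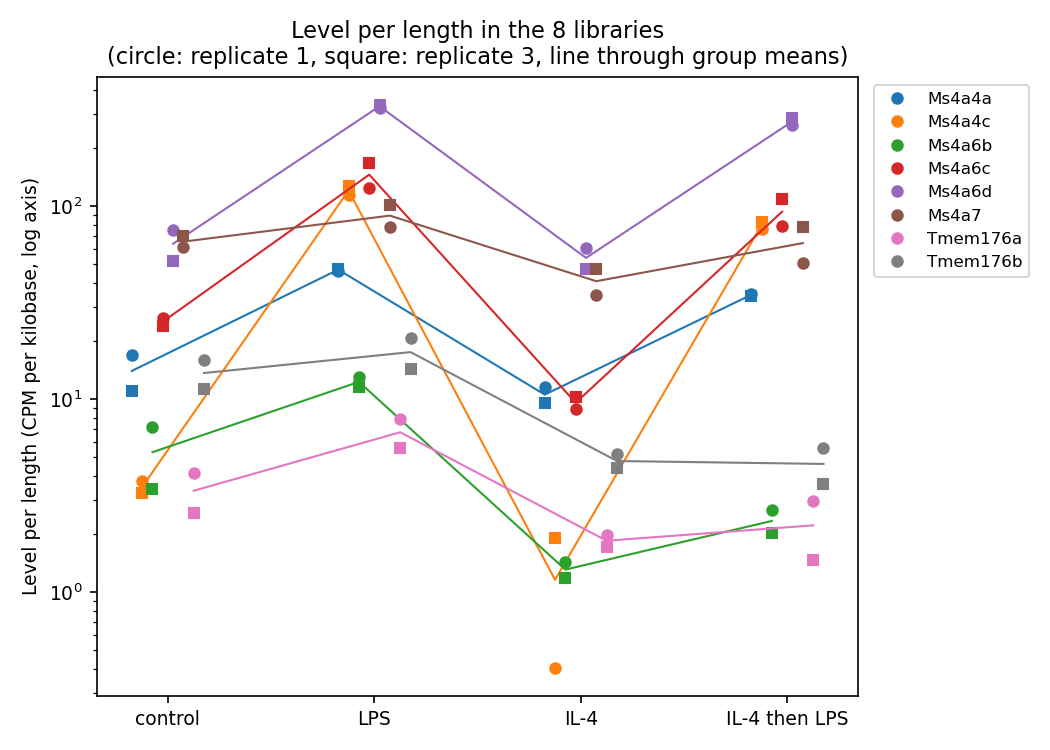
Level per length (CPM per kilobase, log axis) of the 8 genes in the 4 groups. Circles are replicate 1, squares replicate 3 and lines join group means. Ms4a4c ran from 1.16 after IL-4 to 121 after LPS, and Ms4a7 from 40.9 to 89.6.

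The 6 Ms4a members summed to 512 and 482 CPM in control and 1466 and 1689 CPM in LPS libraries. With IL-4 they summed to 295 and 330 CPM, and with IL-4 then LPS to 1022 and 1255 CPM. Ms4a7 made up 53.3% and 64.7% of that sum in control and 52.3% and 63.7% after IL-4, but 23.6% and 26.7% after LPS and 22.3% and 27.6% after IL-4 then LPS. Ms4a4c made up 1.28% and 1.19% in control and 13.7% and 13.2% after LPS. Ms4a6d made up 25.7% and 18.8% in control and 35.8% and 24.9% after IL-4. Its share was 38.5% and 34.5% after LPS and 44.7% and 39.9% after IL-4 then LPS. The share of Ms4a7 thus followed LPS in both arms, while that of Ms4a6d was also higher with IL-4 within each replicate number. The sum was lower in each IL-4 group than in its partner group.

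The Tmem176 pair summed to 53.8 and 36.7 CPM in control, 79.6 and 55.2 in LPS, 19.9 and 16.9 in IL-4, and 24.6 and 14.3 in IL-4 then LPS libraries. The ratio of Tmem176b to Tmem176a reads was 2.40 and 2.76 in control, higher than in any other library. It was 1.63 and 1.60 after LPS, 1.62 and 1.60 after IL-4, and 1.17 and 1.56 after both. The sources used here do not say how the 81 shared exonic bases were counted.

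Across the 8 libraries, which share the LPS contrast, log2 levels of Ms4a4a and Ms4a6d correlated at r = 0.99 and those of Ms4a4c and Ms4a6c at 0.98. Ms4a6b was closer to the Tmem176 pair on another chromosome (0.94 with Tmem176a and 0.92 with Tmem176b) than to its neighbours Ms4a6c (0.66) and Ms4a6d (0.54). The lowest value was that of Ms4a6d with Tmem176b, at 0.19. These correlations are descriptions over 8 libraries of 4 groups.

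Outside the families, the genes most like each member by Pearson's r over the 8 libraries were sought among 9456 genes. For Ms4a4a they were Tut4, Ptbp3 and Pggt1b (0.996 each), for Ms4a4c Snw1 (0.997), Twsg1 and Pde4b (0.995 each). Ms4a6c was most like Slc25a37 (0.996) and Cd14 (0.991), and Ms4a6d like Med13 and Rnf24 (0.998 each) and Man2a1 (0.997). Ms4a7 was most like Ubap2l (0.988), Lpcat2 (0.984) and Clec12a (0.977). For Ms4a6b they were Nab1 (0.983), Tmem123 (0.97) and Rps6ka5 (0.967). Tmem176a was most like Necap1 (0.981), Rps6ka5 (0.964) and March1 (0.96), so Rps6ka5 stood on both lists. Tmem176b was most like Siglec1 (0.987), Gbe1 (0.974) and Cd5l (0.962). By rank (Spearman's rho) the value for Cd5l was 0.833, and those of the other genes named were 0.952 or higher. These 8 libraries share the group contrasts, LPS above all, so the lists are descriptions and show no specific tie between genes.

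The other 13 Ms4a genes of the table were mostly silent. Of these, 7 held no read in any library, among them Ms4a2, and 4 held 1 to 12 reads over all 8 libraries, among them Ms4a1 (1 read). Only Ms4a14 and Ms4a4b had enough reads to be tested. Ms4a14, the neighbour of Ms4a7 in the cluster, had 47.4 and 33.3 CPM in control, 51.6 and 40.0 in LPS, 20.2 and 19.1 in IL-4, and 34.2 and 33.4 in IL-4 then LPS libraries. It was lower after IL-4 by 2.05-fold on average, which did not pass (edgeR adjusted p = 0.196) but did with the replicate term (-1.02 ± 0.15, adjusted p = 0.0107), and it rose when LPS followed IL-4 (0.78 ± 0.21, adjusted p = 0.0194). Ms4a4b held 8 reads in control, 33 in LPS, 1 in IL-4 and 45 in IL-4 then LPS libraries. Some of these may be shared with Ms4a4c, whose transcripts carry stretches identical to those of Ms4a4b.

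**Figure D5:**
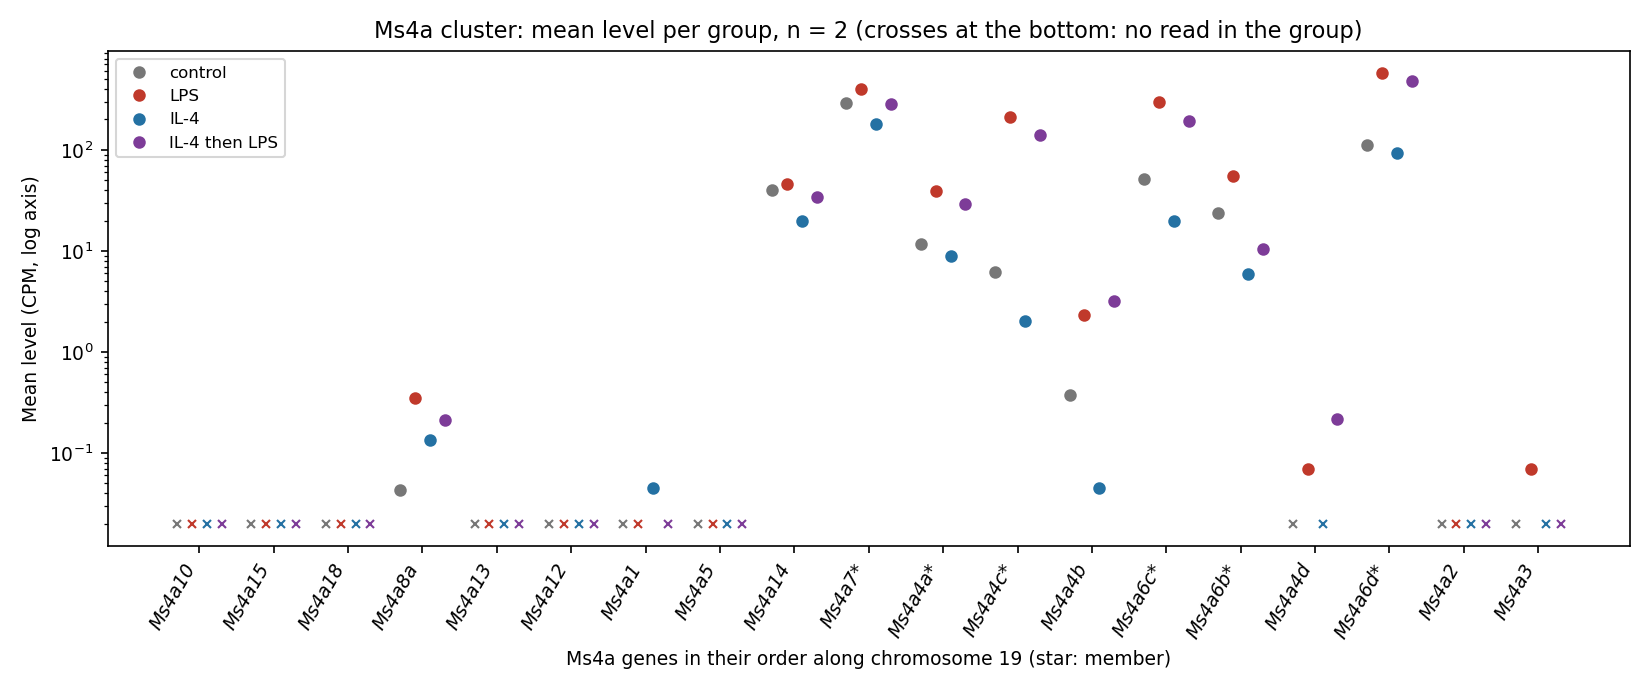
Mean level (CPM, log axis, n = 2) in each group of the 19 Ms4a genes in their order along chromosome 19, with members starred and crosses for no read in a group. Ms4a14 and the 6 members had means from 2.03 to 573 CPM in every group, and the other 12 genes were at 3.17 CPM or lower.

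Of 13 genes known as partners of these proteins or of their pathways, 12 could be tested; the list was chosen with earlier results known. After LPS alone 5 rose and 1 fell (7 and 1 with the replicate term). Of all tested genes 21.8% were called higher and 18.6% lower, and 28.2% higher with the replicate term. The inflammasome genes Nlrp3 (3.61 ± 0.34, edgeR adjusted p = 0.000132) and Casp1 (2.08 ± 0.14, 2.77e-05) rose, as did the MHC class II genes Cd74 (0.77 ± 0.18, 0.0105), Ciita (1.19 ± 0.32, 0.0199) and H2-Ab1 (1.11 ± 0.36, 0.0398). Clec7a, which encodes dectin-1, fell by 0.95 ± 0.24 (adjusted p = 0.0146). Trem2 (-0.23 ± 0.14) and its adaptor Tyrobp (-0.06 ± 0.17) did not pass.

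In IL-4 against control none of these 12 passed, and with the replicate term 5 rose and 1 fell. With that term 0.858% of tested genes were called lower. The shares called higher with it in the IL-4 comparisons were not counted, so the rises have no background beside them. Those that rose were Cd74 (0.95 ± 0.14, edgeR adjusted p = 0.0106), Ciita (1.26 ± 0.13, 0.0031), H2-Aa (0.81 ± 0.15, 0.0289), H2-Ab1 (0.90 ± 0.14, 0.0144) and Clec7a (0.64 ± 0.11, 0.0247). Nlrp3 fell by 0.90 ± 0.15 (adjusted p = 0.0189). These MHC class II genes thus moved opposite to Tmem176b with IL-4, and opposite to the other members too, as all 8 were lower on average. H2-Eb1 did not pass with the replicate term (0.83 ± 0.19, edgeR adjusted p = 0.0567). In LPS against control the MHC class II genes and Tmem176b (0.36 ± 0.27) all had positive changes with the scaling used here. In IL-4 then LPS against LPS none passed, and with the replicate term 4 rose (Cd74, Ciita, H2-Aa and Clec7a) and none fell. After LPS in cells with IL-4, against IL-4 alone, 3 rose and 2 fell (5 and 3 with the replicate term). Of all tested genes 20.7% were called higher and 18.6% lower, and 26% higher with the replicate term. Nlrp3 rose there by 4.37 ± 0.35 (adjusted p = 6.62e-05), and Clec7a fell by 0.80 ± 0.23 (0.029).

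For scale, all 10 genes of an interferon response list rose in both LPS comparisons, with medians of 5.59 and 5.60 (log2), and none passed in either IL-4 comparison. Of all tested genes 21.8% and 20.7% were called higher in those LPS comparisons. Among the members only Ms4a4c (5.10 and 6.10) had changes of that size. Of 9 tested genes of an IL-4 response list, 3 rose in IL-4 against control and 4 in IL-4 then LPS against LPS (7 each with the replicate term), with medians of 3.52 and 3.54. Without that term 0.0572% and 0.049% of all tested genes were called higher in these comparisons.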

How the data were processed

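RNA sequencing counts of 8 libraries (4 groups of 2) were analysed. The deposited table holds raw read counts per gene, whole numbers, from the authors. The tools HISAT2, StringTie and HTSeq and the build mm10 are listed, per the submitters' processing notes. The sources used here give no versions, no strandedness and no rule for multiply matching reads. A further 6 count columns that match no label were not used. The members and lists were chosen with earlier results of these data known.

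Groups were fitted with edgeR 4.0.16 (R 4.3.3): filterByExpr by group (12234 genes), TMM factors (0.787 to 1.251), 1 mean per group, quasi-likelihood test, Benjamini-Hochberg adjustment over all tested genes, calls at 0.05. The SE was taken from the fold change (log2) and the F statistic. The numbers 1 and 3 were taken to pair the libraries, because deviations of same-numbered libraries from their group means correlated over 0.1 in 6 of 6 pairs of groups (0.343 to 0.524). Alternatives were DESeq2 1.42.0, other scalings, no filter, the 2 groups alone, the replicate number as a block, and each library left out. The test was checked on simulated counts drawn without a replicate effect. That check does not cover the deviations that same-numbered libraries share. All members are described, with other Ms4a genes of at least 10 reads and, for each member, the 3 genes with the highest correlation of log2 CPM (prior count 2) among those of at least 5 CPM; 1 gene of these lists is not reported here. Upstream sequences were compared with Biopython 1.88. Counts carry no molecular identifiers.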

Additional observations from a re-analysis of the deposited data

How the results depend on the processing

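In LPS against control, 5 members were higher and 8 with the replicate block. In IL-4 against control, 0 members were lower, but 4 with DESeq2, 5 without a filter beyond 1 read and 4 with the replicate block; leaving out each library gave 0 to 1 (1 without control replicate 3 or IL-4 replicate 3). In IL-4 then LPS against LPS, 0 were lower, but 3 with DESeq2, 3 without the filter, 3 with the replicate block and 1 with the 2 groups alone; leaving out each library gave 0 to 1 (1 without control replicate 1 or 3). The shares of all genes called were not counted without the filter, with the 2 groups alone or with a library left out. The member counts in those settings therefore have no background beside them, and a setting that calls more genes in general is not separated. The replicate block changed no member's call beyond those given above, and the cause of these shifts was not tested.

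With library size alone, log2 fold changes reversed for Ms4a7 (-0.16) and Tmem176b (-0.24) in LPS against control and for Tmem176a (-0.26) in the LPS response after IL-4. The differences of LPS responses reversed for Ms4a4a (0.06) and Ms4a6d (0.07); that of Ms4a6d was 0 with upper-quartile scaling, RLE factors and DESeq2. Leaving out each library gave ranges that cross 0. They were -0.52 to 0.01 for Ms4a6d in IL-4 against control, and -0.34 to 0.69 for Tmem176a and -0.39 to 0.22 for Tmem176b in the LPS response after IL-4. For the difference of LPS responses they were -0.29 to 0.30 for Ms4a4a, -0.95 to 0.12 for Ms4a6b, -0.24 to 0.28 for Ms4a6d and -0.13 to 0.52 for Ms4a7. None of these values was called without the replicate block; with it, Ms4a7 and Tmem176b were called higher in LPS against control. With upper-quartile scaling the median of all genes shifted by -0.265 in LPS against control and by -0.248 in the LPS response after IL-4.

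With 2 libraries a group, a library that varies alone weighs heavily. Depth limits Ms4a4c after IL-4 (45 reads) and the Ms4a genes with few reads.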
